A study of Mus musculus with 25 samples.

Results

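The transcripts of 7 hypertrophy and fetal cardiac genes were examined in left ventricular tissue of mice, namely Nppa, Nppb, Myh6, Myh7, Acta1, Actc1 and Ankrd1. The genes were chosen by name as a textbook panel of the fetal gene program and its adult counterparts. Earlier results of these data were known when they were chosen. All 7 of the 7 were found among the 35852 gene symbols of the table. Each was also among the 11967 genes whose mean level was high enough to be tested. There were 5 groups of 5 male mice: WT and GPx4+/- mice on either diet, CNTL or HFHS, and WT HFHS + Carnosine. WT mice and their GPx4+/- littermates, which carry 1 disrupted allele of the gene for the lipid peroxidase GPx4 in the whole body, were on a C57BL6/J background and were 8 to 10 weeks old when the diets began. The diets were a control chow (CNTL) or a chow rich in lard, cholesterol and sucrose (HFHS), given for 16 weeks, and the carnosine group drank the dipeptide at 80 mM from week 7 onward. All mice were fasted and then injected with dextrose or saline before tissue was taken, and the labels do not say which mouse received which. The study's GPx4+/- animals given carnosine are not analysed here.

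The fetal gene program is the set of genes that the ventricle uses before birth, silences afterwards and uses again under pressure or volume load. Nppa and Nppb encode the natriuretic peptides ANP and BNP, which cardiomyocytes secrete when stretched, and Nppa is also made at a high level by healthy atrial muscle throughout life. Myh6 encodes the fast adult myosin heavy chain of the mouse ventricle and Myh7 the slow fetal one. Actc1 encodes cardiac alpha-actin, the main actin of the adult heart, and Acta1 encodes skeletal alpha-actin, which the fetal heart uses in larger amounts. Ankrd1 encodes CARP, an ankyrin repeat protein that binds titin at the I-band and responds to stretch.

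On GRCm38, Nppa (ENSMUSG00000041616.9) lies on chromosome 4 from 148000722 to 148002079 and Nppb (ENSMUSG00000029019.8) beside it from 147985788 to 147987205, both on the plus strand. Myh6 (ENSMUSG00000040752.16) and Myh7 are likewise neighbours, on the minus strand of chromosome 14 from 54941921 to 54966927 and from 54970684 to 54994626. Acta1 lies on chromosome 8 (123891769 to 123894751), Actc1 on chromosome 2 (114047282 to 114053548) and Ankrd1 on chromosome 19 (36111961 to 36120099), all on the minus strand. All are protein coding. Myh6 and Myh7, and likewise Acta1 and Actc1, are close paralogs, and reads that fit both members of a pair were divided between them before the values were deposited.

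The upstream sequences of Acta1, Nppb and Ankrd1 are shown because these 3 genes varied together between mice, as described further on. In the RefSeq promoter windows of GRCm38.p6, the 250 bases before the start were searched on both strands for the MCAT element CATTCC (reverse complement GGAATG), which TEAD factors bind, for the CArG box bound by serum response factor, and for TATAAA. Of the 7 genes, which have 8 windows since Myh7 has a second overlapping one, 5 held the MCAT letters in 1 window each (Nppb, Myh6, Myh7, Acta1 and Ankrd1), while 12.6% of all 32841 promoter windows held them. The CArG box was found in 2 (Acta1 and Actc1), against 1.47% of windows, and TATAAA in 3 (Nppa, Nppb and Acta1), against 12.4%. A match of letters does not show that a factor was bound. For Acta1, the whole searched stretch, chr8:123894776-123895025 on the minus strand, reads as follows with the CArG box, the MCAT element and TATAAA in capitals, in that order and without overlap.
Acta1: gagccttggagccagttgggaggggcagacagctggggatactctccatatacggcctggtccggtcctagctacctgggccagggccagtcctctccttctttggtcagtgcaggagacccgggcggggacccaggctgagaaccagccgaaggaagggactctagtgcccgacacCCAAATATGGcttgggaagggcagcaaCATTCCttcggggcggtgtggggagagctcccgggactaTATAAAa

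The other MCAT matches are given as 30 bases with the element in capitals, 5′ to 3′ along the gene. They lie at chr4:147985783-147985812 (plus strand) for Nppb, at chr19:36120037-36120066 and chr19:36119950-36119979 (minus strand) for the first and second match of Ankrd1, at chr14:54966796-54966825 (minus strand) for Myh6 and at chr14:54994810-54994839 (minus strand) for Myh7. Starts are those of RefSeq, and GENCODE places some further upstream, so that the Nppb match and both Ankrd1 matches fall inside the first exon of the main GENCODE transcript. The Myh6 match lies upstream of the main Myh6 transcripts but in the first intron of a minor one.
Nppb: gctcagccggcaGGAATGcagctgataaat
Ankrd1, first: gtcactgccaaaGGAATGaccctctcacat
Ankrd1, second: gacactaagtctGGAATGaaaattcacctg
Myh6: ctttggggaggaGGAATGtgcccaaggact
Myh7: ctagtgagccgtGGAATGttagagatattt

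Levels are given as scaled TPM, the length-corrected transcript abundance (summing to 1000000 in a library) added up over the transcripts of a gene and divided by a library factor between 0.864 and 1.16. Since TPM is corrected for transcript length, levels can be compared between genes. TPM keeps no read depth, and no counting error can be given. Over the 25 mice the mean scaled TPM was 8591 for Myh6 and 7946 for Actc1, which ranked 19 and 20 among all genes. The means were 453 for Ankrd1, 397 for Nppa, 263 for Acta1, 116 for Myh7 and 75.5 for Nppb. Gpx4 was between 585 and 777 in the 15 WT mice and between 249 and 385 in the 10 GPx4+/- mice, so every library matched its labelled genotype. The ventricular sarcomere genes (Myl2, Myl3, Tnni3, Ttn and others, 11 in all) summed to between 37190 and 47630 in every library. The extraction protocol names the left ventricle, while the tissue label says only heart. Markers of other tissue were high in some libraries, and their values stand beside the results they touch.

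**Figure D1:**
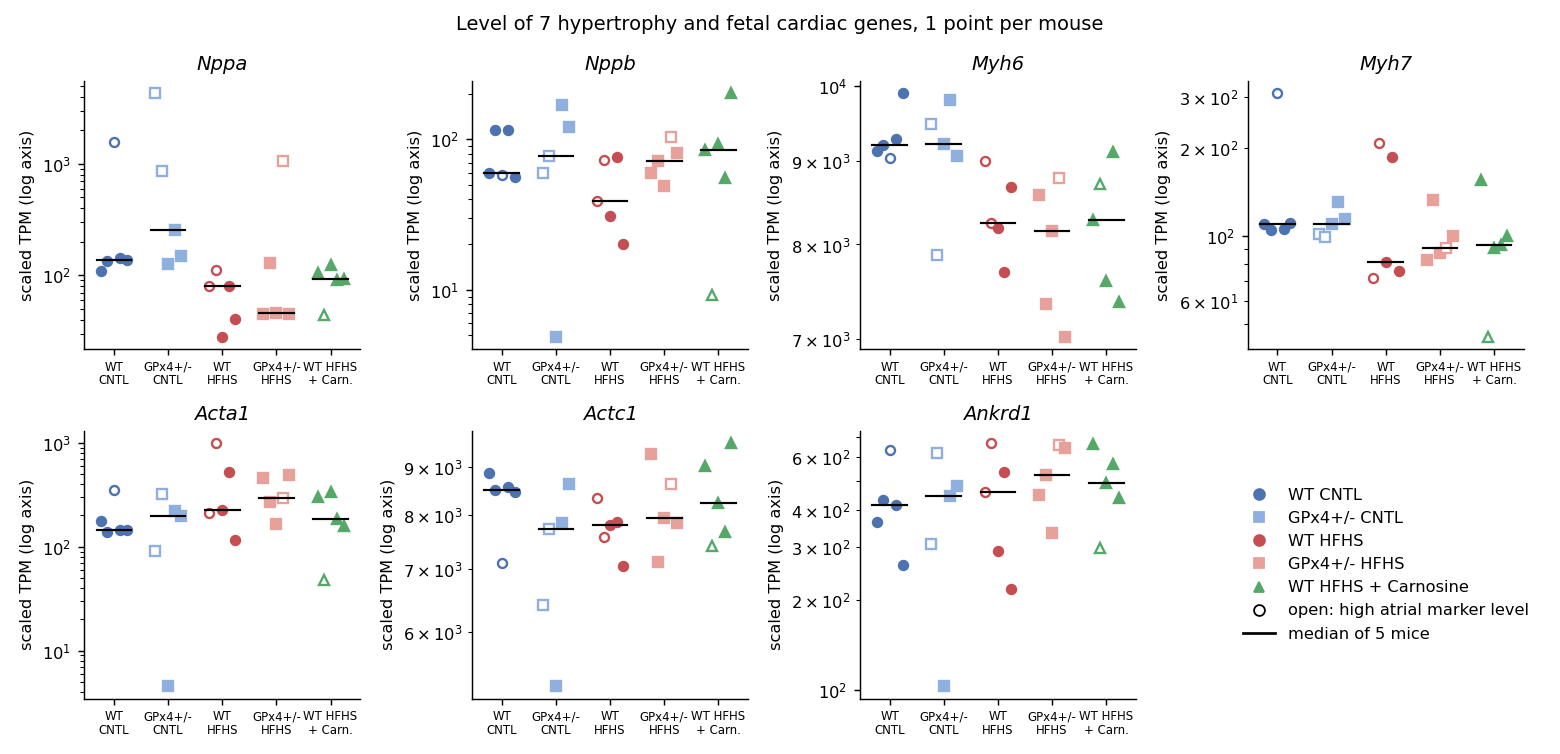
Scaled TPM (log axis) of the 7 genes in the 25 mice, 1 point per mouse and 1 panel per gene; open points mark the 7 libraries with a high atrial marker level and lines mark the median of 5. Nppa was 865 or more in 4 mice, all with open points, and in every CNTL mouse it was at least 110.

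Of the 7 genes, 1 was called for diet, and only in the average over both genotypes. A gene was called when its adjusted p from limma (empirical Bayes, Benjamini-Hochberg over all genes tested) was under 0.05. Myh6 fell on HFHS, to 0.887 of its CNTL level. Diet over both genotypes called 994 of the 11967 genes (8.31%), so 1 of 7 is near what any genes would give. In WT alone the diet called 0 of the 7 (1.01% of all genes were called) and in GPx4+/- alone 0 of the 7 (3.18% of all genes). The 5 HFHS mice and the 5 CNTL mice did not overlap for 1 of the 7 genes in WT (Myh6, against 4.29% of all genes) and for 0 of the 7 in GPx4+/- (4.49%). The median log2 fold change of the 7 genes over both genotypes was -0.17, which is the value of Myh6, and that of all genes tested -0.001. The 7 values ran from -1.95 for Nppa to 1.28 for Acta1, and 3 of the 7 were above 0.

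**Figure D2:**
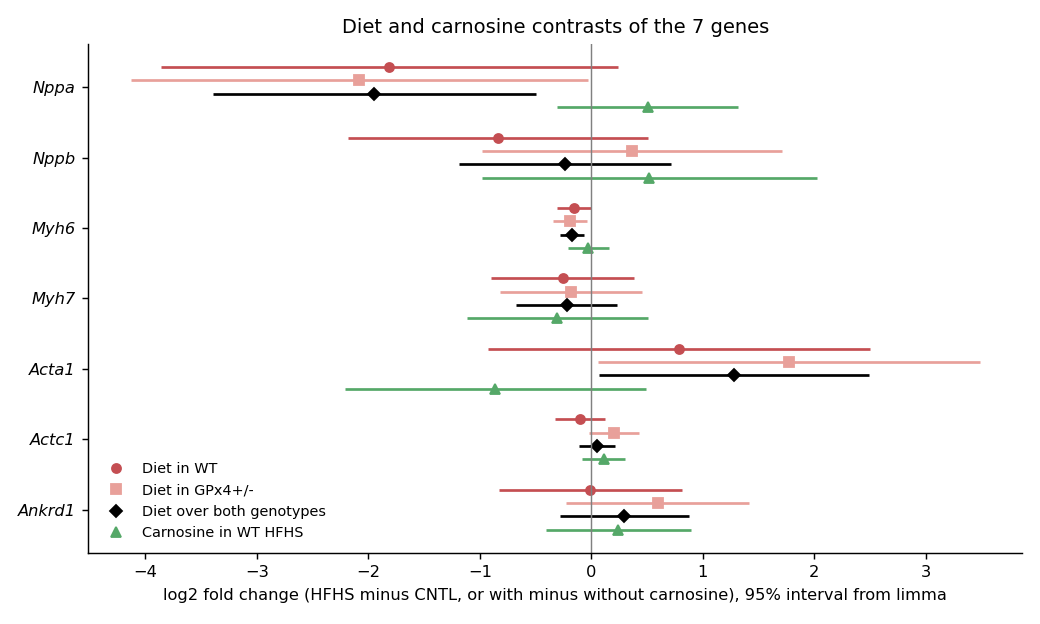
Log2 fold changes of the 7 genes with their 95% intervals from limma, for HFHS minus CNTL in WT, in GPx4+/- and over both genotypes, and for carnosine minus no carnosine in WT HFHS. The Myh6 intervals are narrow and lie below 0 for diet (-0.28 to -0.07 over both genotypes), while those of Nppa and Acta1 are wide.

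Nppa was lower in most HFHS mice than in any CNTL mouse. In WT CNTL its scaled TPM was 110, 136, 1572, 142 and 137 in replicates 1 to 5, and in GPx4+/- CNTL it was 4307, 865, 126, 255 and 148.5. In WT HFHS it was 80.4, 112, 28.2, 80.9 and 40.5, and in GPx4+/- HFHS it was 45.2, 129, 46.1, 1055 and 45.1. All 10 CNTL mice were at 110 or above, and 7 of the 10 HFHS mice were below that. The other 3 HFHS mice overlapped with the CNTL range, among them GPx4+/- HFHS replicate 4 with 1055. Because of the few very high values the spread was wide, and the log2 fold change over both genotypes was -1.95 (standard error 0.694, 95% interval -3.40 to -0.50, adjusted p = 0.0886 from limma). It was -1.81 in WT (adjusted p = 0.367) and -2.08 in GPx4+/- (adjusted p = 0.266), again from limma. Without GPx4+/- HFHS replicate 4 the change over both genotypes was -2.36 and was called (adjusted p = 0.025), and in the other 19 fits without 1 library it was not (adjusted p 0.0652 to 0.146). The value in WT was -1.096 without WT CNTL replicate 3, the mouse at 1572, and that in GPx4+/- was -1.266 without GPx4+/- CNTL replicate 1, the mouse at 4307.

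The very high Nppa values lay in libraries that also held transcripts of atrial muscle. An atrial marker level was taken as the mean log2(scaled TPM + 0.5) of Myl7, Myl4, Sln, Bmp10, Mybphl, Dkk3, Kcnj3 and Kcna5. It was more than 1 log2 unit above the median of the 25 mice in 7 libraries, namely 3 CNTL libraries (WT replicate 3, GPx4+/- replicates 1 and 2), 3 HFHS libraries (WT replicates 1 and 2, GPx4+/- replicate 4) and WT HFHS + Carnosine replicate 2. In those 7 the 8 markers summed to between 91.6 and 3238 scaled TPM, and in the other 18 to between 34.8 and 88.5. Myl7, the atrial myosin regulatory light chain, was between 24.8 and 1692 in the 7 and between 0 and 9.40 in the 18. Sln, the atrial calcium pump inhibitor sarcolipin, was between 0.983 and 197 in the 7 and at most 0.396 in the 18. Kcnj3 and Kcna5 differed less between libraries, with ranges of 17.2 to 55.5 and 9.79 to 18.1. Bmp10 was 141.5 in GPx4+/- CNTL replicate 1, 5.12 in GPx4+/- HFHS replicate 4 and 1.11 in WT CNTL replicate 3. In every other library, also the rest of the 7, Bmp10 was at most 0.0499. Dkk3 was 4.27 in WT HFHS replicate 1, which is among the 7, and 32.3 in WT HFHS replicate 4, which is not. For diet over both genotypes the median log2 fold change of the 8 markers was -0.73, and 0 of the 8 were called. GPx4+/- CNTL replicate 2 also held transcripts of hepatocytes, whose markers summed to 1169 there and to at most 99.3 elsewhere.

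Nppa was 865 or more in 4 of these 7 libraries and not in the other 3. WT HFHS + Carnosine replicate 2 had 283 of Myl7 and an Nppa of 44.2, the lowest of its group. Over the 25 mice, after each group's mean was taken off, log2 Nppa and the atrial marker level had a Pearson r of 0.839, given as a description since the points share their libraries and scaling. The r of Nppa was 0.556 with the summed fibroblast markers and -0.491 with the summed ventricular sarcomere genes. For the other 6 genes r with the atrial marker level lay between -0.192 (Actc1) and 0.293 (Ankrd1).

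**Figure D3:**
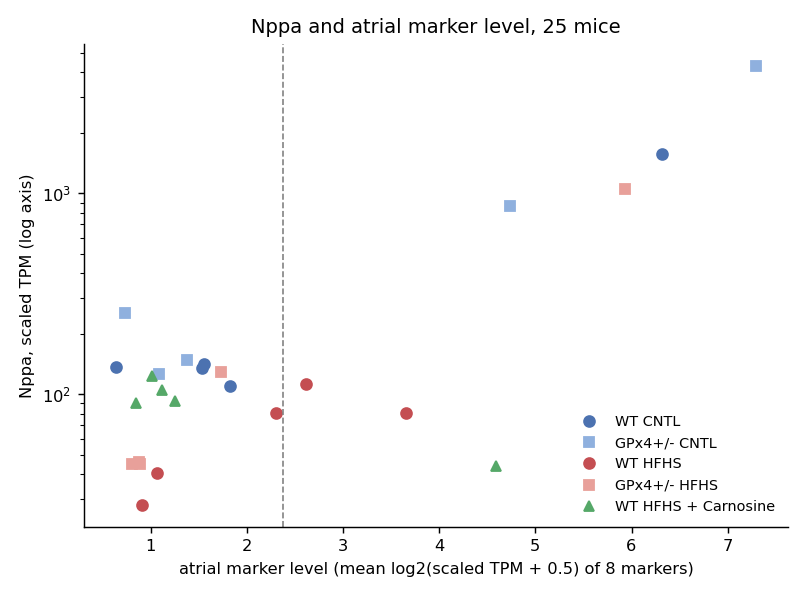
Nppa (scaled TPM, log axis) against the atrial marker level in the 25 mice, by group; the dashed line is 1 log2 unit above the median. To its left the 7 CNTL mice lie between 110 and 255 and the 7 HFHS mice without carnosine between 28.2 and 129.

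Among libraries of low atrial marker level, Nppa was lower on HFHS in each genotype. In WT it was 131 ± 14.5 (SD, n = 4) on CNTL and 49.9 ± 27.6 (SD, n = 3) on HFHS. In GPx4+/- it was 177 ± 68.9 (SD, n = 3) on CNTL and 66.2 ± 41.6 (SD, n = 4) on HFHS. The groups overlapped in GPx4+/-, where 1 HFHS mouse at 129 was above the lowest CNTL mouse at 126. With the 6 libraries of high atrial marker level among the 20 mice left out of the fit, Nppa fell by 1.51 on the log2 scale over both genotypes (standard error 0.275, 95% interval -2.10 to -0.92, adjusted p = 0.00811 from limma), where 5.51% of all genes were called. Each genotype alone had nearly the same value but missed the threshold, WT with -1.52 (adjusted p = 0.0744 from limma) and GPx4+/- with -1.51 (adjusted p = 0.0684).

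With all 20 mice kept and the atrial marker level as a covariate, Nppa fell by 1.48 on the log2 scale (standard error 0.202, 95% interval -1.90 to -1.06, adjusted p = 0.000213 from limma), a fold of 0.359, and 9.63% of all genes were called. Under the covariate it also passed in WT (-1.62, adjusted p = 0.0077, with 1.92% of genes called) and in GPx4+/- (-1.34, adjusted p = 0.0151, with 3.34% called), from limma. With the covariate, the diet-by-genotype interaction of Nppa was 0.28 (95% interval -0.56 to 1.12, adjusted p = 0.906 from limma), so the interval allows a difference of either sign. In bulk tissue, fewer cells of a type and less RNA per cell cannot be told apart, here and for the genes below.

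Nppb was not called for diet. Its scaled TPM was 59.8, 115, 57.6, 116 and 56.0 in WT CNTL and 60.02, 77.9, 4.86, 169 and 121 in GPx4+/- CNTL. On HFHS it was 39.1, 73.1, 30.9, 76.9 and 20.0 in WT and 59.7, 71.7, 48.6, 104 and 81.5 in GPx4+/-. The diets overlapped widely in both genotypes, and 3 of 5 WT HFHS mice were below all WT CNTL mice. The log2 fold change for diet was -0.84 in WT (95% interval -2.19 to 0.51) and 0.36 in GPx4+/- (-0.99 to 1.71), with adjusted p = 0.55 and 0.823 from limma. The GPx4+/- value turned to -0.48 when GPx4+/- CNTL replicate 3, the mouse at 4.86, was left out.

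Around these hormones, 8 of 9 genes of natriuretic peptide processing and reception were high enough to be tested, and over both genotypes 1 rose on HFHS and 0 fell, near the 8.31% of all genes called. That gene was Mme, encoding neprilysin, which degrades natriuretic peptides, with a log2 fold change of 0.34 and a standard error of 0.07 (adjusted p = 0.00547 from limma). It kept its call without any single library. The median log2 fold change of the 8 was 0.12, against -0.001 over all genes.

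Myh6 was the gene with the smallest spread between mice and the one called for diet. It was 9127, 9205, 9037, 9277 and 9902 in WT CNTL and 8999, 8240, 8192, 7694 and 8672 in WT HFHS, with every HFHS mouse below every CNTL mouse. In GPx4+/- it was 9486, 7878, 9222, 9813 and 9066 on CNTL and 8582, 7351, 8151, 8783 and 7024 on HFHS, and there the diets overlapped through the CNTL mouse at 7878. That mouse was replicate 2, the library with hepatocyte and atrial transcripts. All other CNTL mice of either genotype were at 9037 or above, and all 10 HFHS mice were at 8999 or below.

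The log2 fold change of Myh6 was -0.16 in WT (standard error 0.072, adjusted p = 0.285 from limma), -0.19 in GPx4+/- (standard error 0.072, adjusted p = 0.158) and -0.17 over both (standard error 0.051, 95% interval -0.28 to -0.07, adjusted p = 0.0403). The direction was the same without any of the 20 libraries, but the adjusted p was under 0.05 in only 6 of these 20 fits (0.0164 to 0.044). These were the fits without WT CNTL replicate 3, GPx4+/- CNTL replicate 2, WT HFHS replicates 1 and 5, and GPx4+/- HFHS replicates 1 and 4. In the other 14 it was 0.0527 to 0.0765 from limma. The call held in 9 of 12 other settings, including a count of full-length transcripts only, which was chosen after seeing the data. Among those that lost it were the fit without a filter on low genes (adjusted p = 0.246 from limma) and quantile normalization, where the change was -0.12 (adjusted p = 0.212).

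About 31% of the summed Myh6 TPM (30.6% in the median library) belonged to a short annotated transcript of 542 bases, and nearly all the rest to the full-length transcripts of 6113 and 6008 bases. Counting the full-length transcripts alone, a setting chosen after seeing the data, the diet change over both genotypes was -0.19 (adjusted p = 0.0132 from limma). In WT their scaled TPM went from 6340 ± 193 (SD, n = 5) on CNTL to 5480 ± 285 on HFHS, and in GPx4+/- from 6170 ± 385 to 5480 ± 495. The short transcript was at 2868 ± 164 (SD, n = 5) on CNTL and 2783 ± 342 on HFHS in WT, and at 2816 ± 392 and 2417 ± 278 in GPx4+/-.

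**Figure D4:**
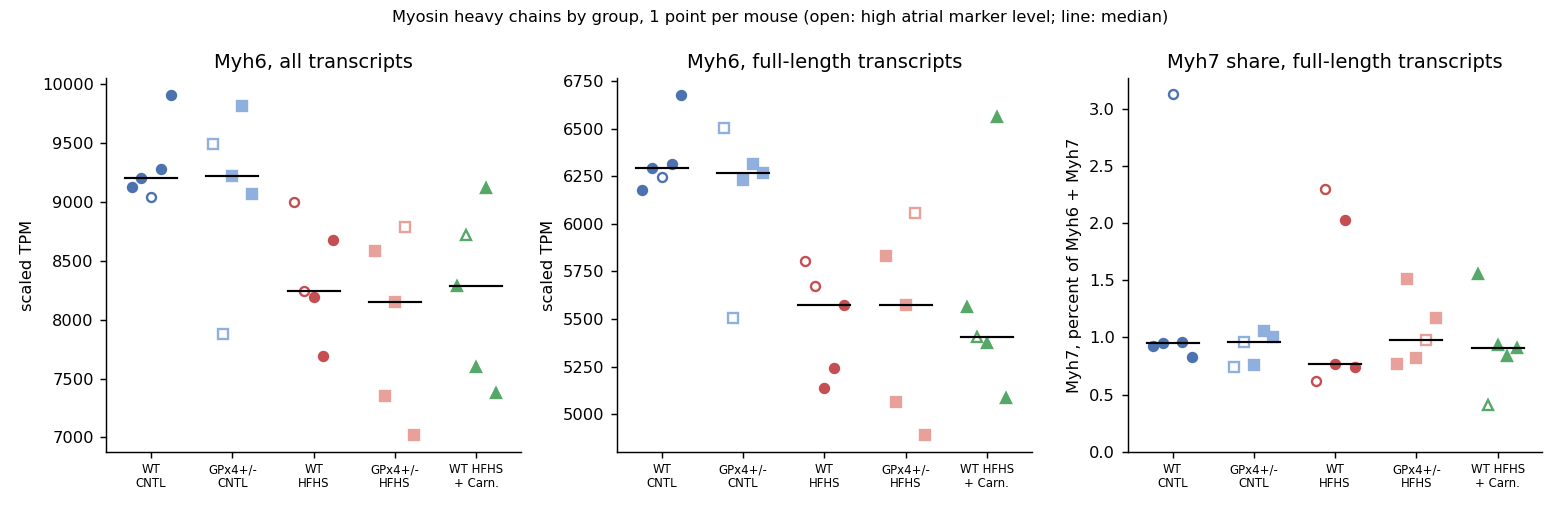
Scaled TPM of Myh6 over all its transcripts and over its full-length transcripts (axes that do not start at 0), and Myh7 as a percentage of Myh6 plus Myh7 from full-length transcripts, 1 point per mouse with open points for libraries of high atrial marker level and lines for medians. All WT HFHS points lie below all WT CNTL points for Myh6, while the Myh7 share stays at 3.13% or below in every mouse.

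Myh7, the fetal isoform, was not called in any comparison. Its scaled TPM was 110, 105, 309, 106 and 111 in WT CNTL and 101, 99.5, 110, 131 and 115 in GPx4+/- CNTL. On HFHS it was 71.7, 208, 81.4, 187 and 75.7 in WT and 82.8, 133, 87.3, 90.8 and 100 in GPx4+/-. In WT HFHS the mice thus fell into 3 low values and 2 high ones, and over both genotypes 6 of the 10 HFHS mice were below every CNTL mouse. The log2 fold change over both genotypes was -0.22 (95% interval -0.67 to 0.23, adjusted p = 0.581 from limma). The 2 high WT HFHS mice, replicates 2 and 4, had 530.5 and 715 of summed fibroblast markers, against 376 to 413 in the other 3, and the part of these cells in the result was not tested.

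As a share of full-length Myh6 plus Myh7, Myh7 made up between 0.41% and 3.13% in all 25 mice. In WT the share was 1.36% ± 0.992 (SD, n = 5) on CNTL, 1.29% ± 0.806 on HFHS and 0.929% ± 0.411 on HFHS with carnosine. In GPx4+/- it was 0.904% ± 0.142 on CNTL and 1.05% ± 0.302 on HFHS. These groups overlap, and Myh6 made up nearly all of the sum of both genes in every group. The full-length transcripts carried a lower part of the Myh7 sum than of the Myh6 sum, since a transcript of 451 bases held 24.9% of it in the median library and a retained intron transcript another 18.5%.

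Acta1 had the widest spread of the muscle genes in every group except WT CNTL, where Myh7 spread more widely. Acta1 was 178, 140, 352, 145 and 144 in WT CNTL and 90.6, 321, 4.54, 218.5 and 198 in GPx4+/- CNTL. On HFHS it was 209, 998, 226, 522 and 116 in WT and 456, 267, 167, 295 and 495 in GPx4+/-. The median of the 10 HFHS mice was 281 and that of the 10 CNTL mice 161.5, and the ranges overlapped, with 4 HFHS mice above every CNTL mouse. Over both genotypes the log2 fold change was 1.28 (standard error 0.58, 95% interval 0.07 to 2.49, adjusted p = 0.179 from limma), a fold of 2.43. Without GPx4+/- CNTL replicate 3, the mouse at 4.54, it was 0.76 (adjusted p = 0.2 from limma). Within GPx4+/- that mouse moved the value from 1.77 to 0.73. Acta1 is also the main actin of skeletal muscle. The 8 fast skeletal muscle markers, of which 2 were high enough to be tested, summed to between 2.21 and 7.40 in every library, and their part in the result was not tested.

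Actc1 stayed the dominant alpha-actin in every mouse. It was 8857, 8507, 7113, 8563 and 8459 in WT CNTL, and 6408, 7726, 5255, 7842 and 8623 in GPx4+/- CNTL. On HFHS it was 8334, 7570, 7800, 7856 and 7064 in WT and 9286, 7121, 7938, 8631 and 7840 in GPx4+/-. The diets overlapped, and the log2 fold change over both genotypes was 0.05 (95% interval -0.11 to 0.21, adjusted p = 0.742 from limma). The share of Acta1 in Acta1 plus Actc1 was 2.32% ± 1.33 (SD, n = 5) in WT CNTL and 2.07% ± 1.45 in GPx4+/- CNTL, and 4.92% ± 4.11 in WT HFHS and 3.9% ± 1.46 in GPx4+/- HFHS. WT HFHS replicate 2 had the highest share, 11.6%, and GPx4+/- CNTL replicate 3 the lowest, 0.086%.

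Ankrd1 was not called for diet, with wide intervals. It was 365, 431, 633.5, 416 and 261 in WT CNTL and 307, 622, 103, 447 and 481 in GPx4+/- CNTL. On HFHS it was 460, 670, 292, 536 and 218 in WT and 448, 524, 335, 661 and 643 in GPx4+/-. The groups overlapped, and the log2 fold change was -0.01 in WT (95% interval -0.83 to 0.81) and 0.60 in GPx4+/- (-0.22 to 1.42), with adjusted p = 0.994 and 0.454 from limma. Without the libraries of high atrial marker level the GPx4+/- value was 0.755 (95% interval -0.22 to 1.74, adjusted p = 0.428 from limma), and without GPx4+/- CNTL replicate 3, the mouse at 103, it was 0.171. A single transcript held 95.2% of its TPM in the median library.

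Acta1, Ankrd1 and Nppb went up and down together from mouse to mouse within groups. After group means were taken off, Pearson r over the 25 mice was 0.908 for Acta1 with Ankrd1, 0.809 for Nppb with Acta1 and 0.761 for Nppb with Ankrd1 (Spearman rho 0.834, 0.658 and 0.672). Leaving out the 2 libraries farthest from the median of the first gene of each pair gave 0.826, 0.546 and 0.56 over 23 mice. These values are descriptions, since all points share their libraries and scaling factors. GPx4+/- CNTL replicate 3 was the lowest of the 25 mice for all 3 genes, and WT HFHS + Carnosine replicate 2 was the next lowest for Acta1 and Nppb.

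Both pairs of neighbouring genes had lower values. Nppa had an r of 0.272 with Nppb, its neighbour on chromosome 4 (0.432 over the 18 mice of low atrial marker level), and Myh6 one of -0.326 with Myh7, its neighbour on chromosome 14. Actc1 had 0.727 with Nppb and 0.603 with Acta1, and the latter was 0.313 without the 2 farthest libraries. Without the 7 libraries of high atrial marker level, the r of Nppa with Myh7 was 0.706 over 18 mice, against 0.385 over the 25. Myh7 had a Spearman rho of 0.682 with Acta1 and 0.642 with Ankrd1, with a Pearson r of 0.49 and 0.52.

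**Figure D5:**
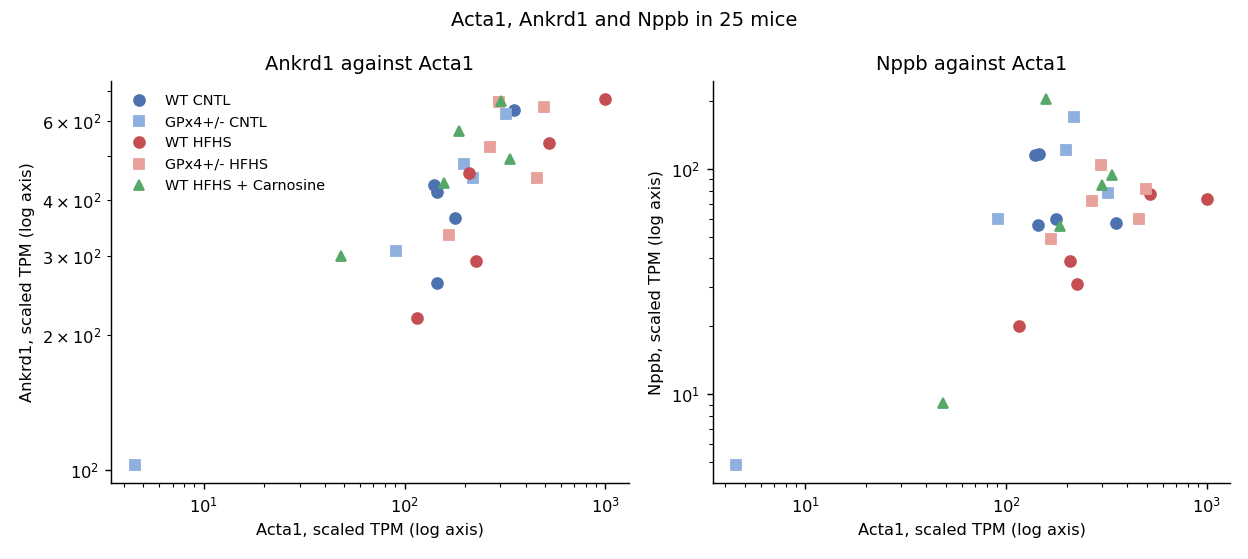
Ankrd1 and Nppb against Acta1 in the 25 mice (scaled TPM, log axes), by group. The mouse at the lower left of each panel, with 4.54 of Acta1, is GPx4+/- CNTL replicate 3. The other mice form an upward band for Ankrd1 and a wider one for Nppb (r = 0.908 and 0.809 within groups).

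The genes whose pattern over the 25 mice was most like each member, by the same r, were as follows. For Acta1 they were Pdzd3 (0.95), Ankrd1 (0.908) and Mybpc2 (0.902), the last encoding fast skeletal myosin-binding protein C, and for Ankrd1 they were Acta1, Mybpc2 (0.906) and Plp2 (0.874). Nppb had Krt80 (0.886), Clic5 (0.881) and Cpxm2 (0.869). Myh6 had Mgst3 (0.901), Mpst (0.868) and Pfkm (0.868), and the summed ventricular sarcomere genes had an r of 0.683 with it. Actc1 had Wipi1 (0.875), Ehbp1l1 (0.856) and Mical2 (0.855), and Myh7 had Scarf2 (0.785), Shisa4 (0.769) and Cmklr1 (0.768), of which Scarf2 was at 0.447 without the 7 libraries of high atrial marker level. For Nppa they were Pam (0.926), which encodes the peptide-amidating enzyme of atrial granules, Tbc1d1 (0.9) and Gpx3 (0.888), and without the 7 libraries of high atrial marker level these were 0.556, 0.032 and 0.459 over 18 mice.

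Among other sarcomere genes, 3 were called for diet over both genotypes. Of 11 adult ventricular sarcomere genes 0 rose and 2 fell, with a median log2 fold change of -0.12, where 8.31% of all genes were called. These were Myom2, which encodes the M-band protein M-protein (-0.80, standard error 0.118, adjusted p = 0.000371 from limma), and Ttn, which encodes titin (-0.26, standard error 0.044, adjusted p = 0.00108). Of 6 tested fetal or immature sarcomere isoforms 0 rose and 1 fell, Tnnt1, the slow skeletal troponin T (-0.62, standard error 0.086, adjusted p = 0.000237 from limma). The median of this list was -0.46, and 3 of its genes (Myl4, Myl7 and Acta2) are also among the atrial or smooth muscle markers. All 3 genes also passed in GPx4+/- alone, where Tnnt1 was -0.89, Myom2 -0.79 and Ttn -0.35 (adjusted p = 0.00114, 0.013 and 0.00519 from limma). In WT alone Myom2 passed (-0.81, adjusted p = 0.0222), and did so in 6 of 10 fits without 1 library.

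Proteins that sense stretch or bind titin beside CARP were a further list. Like the others, it was chosen with earlier results of these data known, so its count of calls is a description. Of 16 tested, 4 rose and 1 fell over both genotypes (8.31% of all genes were called), with a median of 0.05. Fhl1, a LIM protein at the titin I-band, had 0.45 (standard error 0.078, adjusted p = 0.00167 from limma), Xirp2, an actin-binding protein of the intercalated disc, 0.40 (adjusted p = 0.0274), and Trim63, the ubiquitin ligase MuRF1, 0.27 (adjusted p = 0.0306). Myoz2, the calcineurin-binding protein calsarcin-1, fell by 0.18 on the log2 scale (adjusted p = 0.00839 from limma). Trim63 and Xirp2 lost their calls when 1 of several libraries was left out (adjusted p up to 0.0544 and 0.0546), while Fhl1 and Myoz2 kept theirs in all 20 such fits. In GPx4+/- alone 5 rose and 0 fell (3.18% of all genes were called), among them Ankrd23, a paralog of Ankrd1 that also binds titin (1.21, standard error 0.308, adjusted p = 0.0369 from limma), with Xirp2 (0.63), Fhl1 (0.42) and Nrap (0.40). Of these, Fhl1 also passed in WT (0.47, adjusted p = 0.0491). These calls within 1 genotype rested on all libraries: of 10 fits without 1 library, Ankrd23 and Xirp2 were called in 4, Nrap in 3 and Fhl1 in 1 in GPx4+/-, and Fhl1 in 2 in WT, always in the same direction.

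Of 22 transcription factors and cofactors of the program, 1 rose and 0 fell over both genotypes (8.31% of all genes were called), Yap1, a partner of TEAD factors (0.15, standard error 0.034, adjusted p = 0.00922 from limma). The median log2 fold change of the 22, which include Gata4, the Mef2 genes and Srf, was 0.07. Tead1 passed in GPx4+/- alone (0.36, adjusted p = 0.0357, with 3.18% of all genes called) and Mrtfa, a cofactor of serum response factor, in WT alone (0.42, adjusted p = 0.0409, with 1.01% called), and their differences between genotypes were not called. Without 1 library, Tead1 was called in 3 of 10 fits and Mrtfa in 1 of 10 (adjusted p up to 0.0876 and 0.102). Of 13 genes of calcineurin, NFAT and CaMKII signalling 1 rose over both genotypes, Camk2b (0.24, adjusted p = 0.01 from limma). In GPx4+/- alone 2 rose, where 3.18% of all genes were called. They were Camk2b (0.36, adjusted p = 0.013 from limma) and Rcan2, a calcineurin regulator (0.20, adjusted p = 0.0498). Of 10 fits there without 1 library, Camk2b was called in 10 and Rcan2 in 2. Of 9 tested genes of thyroid hormone action, which controls the switch from Myh7 to Myh6, 0 were called, and of 8 immediate early genes 0 were called. The medians of these 3 lists over both genotypes were 0.03, 0.035 and 0.003. Over both genotypes the smallest adjusted p of the thyroid hormone list belonged to Rxra (0.14, adjusted p = 0.0644 from limma) and that of the immediate early list to Fos (-0.76, adjusted p = 0.0591). In GPx4+/- alone Thrb of the thyroid hormone list had -0.37 (adjusted p = 0.0589 from limma).

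Of 10 tested genes that are otherwise known to rise in overloaded hearts (Gdf15, Timp1, Postn and others), 1 rose, Uchl1 (0.36, standard error 0.108, adjusted p = 0.0449 from limma), which lost its call in 13 of 20 fits without 1 library. Of 12 known to fall, 1 fell and 1 rose. Of all genes, 8.31% were called in this comparison. Kcnip2, which encodes the subunit KChIP2 of the transient outward potassium channel, fell by 0.60 on the log2 scale (standard error 0.083, adjusted p = 0.000237 from limma) and passed in WT (-0.60) and GPx4+/- (-0.59) alone, in 8 and 10 of 10 fits without 1 library. Acadm, medium-chain acyl-CoA dehydrogenase, had 0.21 (adjusted p = 0.0193). The median was 0.22 in the first of these lists and -0.06 in the second.

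Markers of other cells in the diet comparison were as follows. Fibroblast markers summed to between 288 and 554 in the 10 CNTL mice and between 361 and 715 in the 10 HFHS mice, and 2 of 7 rose, Lum (0.55, adjusted p = 0.0365 from limma) and Pdgfra (0.29, adjusted p = 0.0408), with a median of 0.36, where 8.31% of all genes were called. Smooth muscle markers summed to between 168 and 266 on CNTL and between 150 and 627 on HFHS, and the summed ventricular sarcomere genes to between 38630 and 47630 on CNTL and between 37190 and 44450 on HFHS. Neither the smooth muscle nor the conduction system markers were called over both genotypes (0 of 6 and 0 of 4 tested), and in GPx4+/- alone Hcn4 of the latter passed (0.71, adjusted p = 0.0442, with 3.18% of all genes called). Of 5 tested hepatocyte and 2 tested fast skeletal muscle markers 0 were called, as were 0 of the 8 atrial markers. The median log2 fold change of the atrial markers was -0.73 over both genotypes, with 1 of the 8 higher on HFHS. It was -0.30 in WT and -1.14 in GPx4+/-. The part of these cells in the results was not tested, apart from the atrial marker level.

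The genotype comparison asked whether loss of 1 Gpx4 allele shifted the 7 genes, and 0 of the 7 were called. On CNTL 6 of all genes were called (0.0501%), on HFHS 6 (0.0501%) and over both diets 7 (0.0585%). For all 7 genes the GPx4+/- and WT mice overlapped on each diet, as did all but 1.03% of genes on CNTL and 0.752% on HFHS. On CNTL the log2 fold changes ran from -0.97 for Acta1 (95% interval -2.69 to 0.74) to 1.055 for Nppa (-0.996 to 3.105), and on HFHS from -0.19 for Myh7 (-0.83 to 0.45) to 0.79 for Nppa (-1.27 to 2.83). The Nppa values were 0.366 on CNTL and 0.379 on HFHS without the libraries of high atrial marker level, and 0.556 (95% interval -0.04 to 1.15) and 0.832 (95% interval 0.24 to 1.42, adjusted p = 0.933 from limma) with the atrial covariate. Nppa was 0.238 on CNTL without GPx4+/- CNTL replicate 1 and -0.045 on HFHS without GPx4+/- HFHS replicate 4, and Acta1 was 0.073 on CNTL without GPx4+/- CNTL replicate 3. Without the covariate, the smallest unadjusted p belonged to Actc1 on CNTL, with -0.23 (95% interval -0.46 to -0.001, unadjusted p = 0.049, adjusted p = 0.791 from limma). For Myh6 the intervals were narrow, -0.19 to 0.11 on CNTL and -0.22 to 0.08 on HFHS. Whether diet acted differently in the genotypes was tested as an interaction, which called 0 of the 7 and 0 of all genes (0% of 11967 by limma, with 885 at an unadjusted p under 0.05). Its values for the 7 lay between -0.27 for Nppa (95% interval -3.17 to 2.63) and 1.2 for Nppb (-0.705 to 3.106). With 1 library left out, the Nppb value ran from 0.358 to 1.603.

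Carnosine was compared within WT HFHS mice, to ask whether it moved these genes on that diet. Limma called 0 of the 7 and 0 of all genes (0% of 11967), with 503 at an unadjusted p under 0.05. The 5 mice with and the 5 without carnosine overlapped for all 7 genes, as they did for all but 0.635% of genes. Nppa was 105.5, 44.2, 123.5, 90.7 and 92.6 with carnosine, where 4 of 5 mice lay between 90.7 and 123.5 and the lowest was the mouse with a high atrial marker level. The log2 fold change was 0.50 (95% interval -0.31 to 1.32, adjusted p = 0.945 from limma). Without the libraries of high atrial marker level Nppa was 103 ± 15.1 (SD, n = 4) with and 49.9 ± 27.6 (SD, n = 3) without carnosine, and the log2 fold change was 1.17 (95% interval 0.47 to 1.86, adjusted p = 0.78 from limma).

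Acta1 was 300, 48.3, 335, 186 and 157.5 with carnosine, against a WT HFHS mean of 414 ± 360 (SD, n = 5) and median of 226. The mice at 300 and 335 were above that median, and all but the mouse at 48.3 were within the WT HFHS range. The log2 fold change of Acta1 was -0.86 (95% interval -2.21 to 0.49, adjusted p = 0.945 from limma), and it was -0.44 without WT HFHS replicate 2 and -0.41 without WT HFHS + Carnosine replicate 2. Without the libraries of high atrial marker level it was -0.035 (95% interval -1.12 to 1.05). Nppb was 84.6, 9.16, 93.7, 55.6 and 203 with carnosine, which covers the WT HFHS range (0.52, 95% interval -0.98 to 2.02). Myh7 was 155, 45.1, 90.7, 93.0 and 100 (-0.31, 95% interval -1.12 to 0.51). Ankrd1 was 663.5, 299, 492, 570 and 437 (0.24, 95% interval -0.41 to 0.89). Without the libraries of high atrial marker level Nppb had 1.41 (95% interval 0.24 to 2.58) and Ankrd1 0.72 (95% interval 0.08 to 1.35), with adjusted p = 0.789 and 0.797 from limma (3 mice without and 4 with carnosine).

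The main adult isoforms were not called with carnosine either. Myh6 was 8285, 8715, 7601, 9113 and 7375, with a log2 fold change of -0.03 (95% interval -0.21 to 0.16), and Actc1 was 9010, 7407, 8228, 7663 and 9540, with 0.11 (95% interval -0.08 to 0.31). In each of the gene lists 0 of the tested genes were called with carnosine, and likewise for genotype. Smooth muscle markers summed to between 171 and 273 in the carnosine mice, and the 627 of WT HFHS replicate 4 stood above all other libraries.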

How the data were processed

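Left ventricular poly(A) RNA of 25 mice was sequenced as stranded, paired-end libraries. The authors deposited TPM per transcript and library, each library summing to 1000000. The submitters' processing notes name kallisto 0.43.1, sleuth 0.30.0 and GRCm38, while the methods describe STAR and DESeq2 on gene counts, which were not used here. Columns were assigned by library name, groups and replicate numbers by the sample labels.

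Of 119215 transcripts, 116684 were matched to GENCODE M21 and summed by symbol. Sums were divided by median-ratio factors over 14998 genes, because mitochondrial transcripts took between 31.3% and 48.7% of a library, and moved to log2(scaled TPM + 0.5), which understates changes of low genes. Only genes averaging 1 scaled TPM or more were tested with limma 3.58.1 (R 4.3.3, empirical Bayes with trend, Benjamini-Hochberg). A first fit held the 4 groups not given carnosine (20 mice), another the 10 WT HFHS mice with and without it. The fit was tested on simulated data. TPM keeps no depth, so a count test and counting intervals were not possible. Each sample is a mouse, and p-values measure the spread between mice. No 2 libraries were copies: the SD of log2 differences was at least 0.257 over 300 pairs (median 0.371).

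The members and gene lists were chosen with earlier results of these data known. Named were the 7 members, up to 4 called genes per list and comparison with the smallest p (otherwise up to 2), the 3 genes most like each member, and the atrial markers. Sequences are from RefSeq, GRCm38.p6. Figures were drawn with matplotlib in Python. Alternatives were a pseudocount of 0.1, a minimum of 5 or none, quantile normalization, TPM as deposited, array weights, the replicate number as a block, all 25 mice in 1 fit, the atrial marker level as covariate, libraries of high atrial marker level left out, each library left out, and protein-coding transcripts only. Full-length transcripts only (at least 80% as long as the gene's longest) was chosen after seeing the data.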

Additional observations from a re-analysis of the deposited data

Results flagged for a closer look

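In 7 of 35 sets of 5 mice (7 genes in 5 groups), the gap between the most extreme mouse and its nearest neighbour was more than 0.71 of the whole range. For independent sets of normally distributed values, chance gives this in about 1 of 20. Here the values were skewed TPM, not log values, and the sets share libraries, so the chance share is not known. For Nppa the mice set apart were WT CNTL replicate 3 (scaled TPM 1572, the others 110 to 142), GPx4+/- CNTL replicate 1 (4307, the others 126 to 865) and GPx4+/- HFHS replicate 4 (1055, the others 45.1 to 129). All 3 libraries had a high atrial marker level.

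WT CNTL replicate 3 stood apart for 3 more genes, with 309 for Myh7 (the others 105 to 111), 352 for Acta1 (the others 140 to 178) and 7113 for Actc1 (the others 8459 to 8857). In that library the fibroblast markers summed to 554, the highest of the CNTL mice, and the atrial markers to 3170. The part of these cells in the Myh7, Acta1 and Actc1 values was not tested. The last was Myh6 in WT CNTL replicate 5, at 9902 with the others between 9037 and 9277.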

How the results depend on the processing

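Nppa kept its direction for diet in WT, in GPx4+/- and over both genotypes under every alternative tried, and so did Myh6 and, over both genotypes, Acta1. Of 56 log2 fold changes of members (7 genes in 8 comparisons), 32 kept their direction throughout, as did all 28 of the named list genes. Over both genotypes 1 member was called, but 0 without the filter, with quantile normalization and with the replicate block, 2 with the atrial covariate and without the libraries of high atrial marker level (Myh6 and Nppa), and 0 to 2 when 1 library was left out. In WT and in GPx4+/- the atrial covariate raised 0 to 1 (Nppa). Replicate numbers do not name the same animals: same-numbered libraries had correlations of -0.338 to 0.23 (median -0.003), 7 of 30 pairs were over 0.1, and 3 of 20 libraries were most like one of their own number, so the replicate block is given here only. Under it the diet called 64, 304 and 872 genes in WT, GPx4+/- and both, against 121, 381 and 994. Outside these, all genes called for diet in WT were 42 without the filter, 38 with TPM as deposited, 406 with array weights and 230 with the atrial covariate. Without the libraries of high atrial level 172 and 659 were called in GPx4+/- and both, and without the filter 240 in GPx4+/-. Leaving out 1 library gave 36 to 192 in WT and 199 to 471 in GPx4+/-. With TPM as deposited the median of all genes for diet in GPx4+/- was -0.101, against 0.005 with scaling. Of the genes called there with TPM as deposited 8.71% were higher, against 69% with scaling (20.1% against 56.7% over both genotypes).

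All sign changes of member values had an uncalled value on each side. For diet they were Ankrd1 in WT (0.026 with the covariate, -0.192 to 0.212 with 1 library left out), Myh7 in WT (-0.482 to 0.044), Myh7 in GPx4+/- (0.016 with full-length transcripts only), Nppb in GPx4+/- (-0.083 with array weights, -0.48 to 0.765) and Actc1 over both (-0.004 with TPM as deposited, -0.003 without the high atrial libraries, -0.003 to 0.087). For genotype on CNTL, Myh6 was 0.006 with TPM as deposited and Myh7 0.126 without the high atrial libraries, and ranges with 1 library left out were -0.873 to 0.372 for Nppb, -0.066 to 0.014 for Myh6, -0.354 to 0.033 for Myh7, -1.426 to 0.073 for Acta1 and -0.494 to 0.153 for Ankrd1. On HFHS, Acta1 was -0.066 and Actc1 -0.003 with TPM as deposited and Acta1 -0.007 with quantile normalization, with ranges of -0.045 to 1.088 for Nppa, -0.352 to 0.031 for Myh7 and -0.342 to 0.435 for Acta1. Over both diets, Myh7 was 0.023 without the high atrial libraries and Ankrd1 -0.009 with the covariate, with ranges of -0.072 to 0.551 for Nppb, -0.706 to 0.043 for Acta1 and -0.081 to 0.243 for Ankrd1. For the interaction, Nppa was 0.277 with the covariate and 0.014 without the high atrial libraries (-1.1 to 0.546 with 1 left out), Myh7 was -0.047 with TPM as deposited, -0.084 with array weights and -0.207 without the high atrial libraries (-0.227 to 0.3), and Myh6 was 0.039 with full-length transcripts only (-0.084 to 0.011 with 1 left out), with a range of -0.06 to 1.439 for Acta1. With carnosine, Myh7 was 0.029 without the high atrial libraries and Myh6 was 0.025 with full-length transcripts only and ranged from -0.066 to 0.011. The cause of these changes was not tested.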
